A study of Mus musculus with 8 samples.

Results

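The Cd300 receptors, paired immunoglobulin-like receptor B (Pirb) and signal regulatory protein alpha (Sirpa) are surface proteins of myeloid cells. The 7 genes described here (Cd300a, Cd300e, Cd300lb, Cd300ld, Cd300lf, Pirb and Sirpa) were taken as the rows of the count matrix that carry these symbols, 7 of 21878 symbols in all. All 7 passed the filter on low counts, which left 11718 tested genes. RNA was sequenced from the peripheral blood of female wild-type C57BL/6 mice aged 6 to 8 weeks. The stress group (n = 4) was held in a ventilated tube for 6 hours, and the control group (n = 4) consisted of littermates that stayed in their cage; both groups went without food and water during that time. The comparison asks how acute restraint stress changes the transcripts of blood cells. Whole blood was measured without sorting, so that fewer cells of a type and less RNA per cell cannot be told apart in any value below.

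Paired receptors are families in which closely related surface proteins give opposite signals. Inhibitory members carry tyrosine motifs (ITIMs) in a long cytoplasmic tail, which recruit the phosphatases SHP-1 and SHP-2 and dampen activation. Activating members have a short tail and signal through adapters such as DAP12 (gene Tyrobp) and the Fc receptor gamma chain (gene Fcer1g). Among the genes described here, Cd300a, Cd300lf, Pirb and Sirpa encode inhibitory receptors, while Cd300lb, Cd300ld and Cd300e encode members that signal through adapters. Cd300 proteins bind lipids exposed on dying or activated cells, Pirb binds MHC class I molecules, and Sirpa binds CD47, a protein that protects cells from being engulfed.

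The 5 Cd300 members lie in one cluster on chromosome 11 (GRCm38, GENCODE M21 annotation). Cd300a is at chr11:114890041-114904654 on the plus strand, followed on the minus strand by Cd300lb (chr11:114922781-114934386), Cd300ld (chr11:114982274-114989922), Cd300e (chr11:115051917-115062177) and Cd300lf (chr11:115116214-115133992). From the first to the last of them the cluster spans 244.0 kb. Pirb is at chr7:3711409-3720391 on the minus strand and Sirpa at chr2:129592835-129632228 on the plus strand. Cd300lf lies inside the span of Rab37 on the opposite strand, and the exons of the pair share 0 bases. No exon of another annotated gene overlapped an exon of the 7 members. Counts of Pirb and Sirpa could still be split with near-identical copies (the Pira and Sirpb1 genes), and those of Cd300ld with the other Cd300ld genes, which was not tested.

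The sequences upstream of Cd300a, Cd300lf and Cd300e are shown because these members of one cluster differed in direction in the stress group. Cd300a and Cd300lf were higher and Cd300e was lower. Cd300lb, which was also higher, is not shown and is part of the search below. Each is read 5′ to 3′ on the strand of its gene, from RefSeq (GRCm38.p6), and ends before the start of the gene in both RefSeq and GENCODE, which leaves 112 bases for Cd300e. Capitals mark GAGGAA or its reverse complement, a core of the sites bound by PU.1, the transcription factor that myeloid cells depend on.
Cd300a, chr11:114889791-114890040, plus strand: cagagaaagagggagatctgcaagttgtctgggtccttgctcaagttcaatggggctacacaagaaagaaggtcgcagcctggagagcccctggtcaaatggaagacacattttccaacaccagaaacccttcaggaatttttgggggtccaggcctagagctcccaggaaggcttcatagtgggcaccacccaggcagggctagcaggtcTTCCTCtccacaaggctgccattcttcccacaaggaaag
Cd300lf, chr11:115133993-115134242, minus strand: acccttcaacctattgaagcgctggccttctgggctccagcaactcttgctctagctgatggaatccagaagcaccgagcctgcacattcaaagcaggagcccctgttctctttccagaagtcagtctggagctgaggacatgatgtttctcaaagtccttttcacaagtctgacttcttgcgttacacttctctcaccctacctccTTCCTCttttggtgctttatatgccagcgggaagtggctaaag
Cd300e, chr11:115062178-115062289, minus strand: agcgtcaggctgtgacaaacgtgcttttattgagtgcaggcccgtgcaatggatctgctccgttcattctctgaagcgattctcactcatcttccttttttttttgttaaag

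The 250 bases before the RefSeq start were searched on both strands for GAGGAA in 6 of the 7 members, Sirpa being absent from this search. Cd300a, Cd300ld and Cd300lf held 1 match each and Pirb held 3, while Cd300e and Cd300lb held 0. Of all 32851 windows of that length in the RefSeq table, 23.3% held a match. TTGCNNAA, a pattern of C/EBP sites, was found in Cd300a alone among the members (9.6% of all windows), and AGAACA, part of glucocorticoid receptor sites, in Cd300lf alone (16.1%). AAAGGTCA, bound by NR4A factors, was in 0 of the 6 (1.3%). The motifs did not overlap each other in these windows. These matches are letters in a window and not measured sites.

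The libraries held 31471145 to 39014775 counts for control and 25978683 to 29655725 for stress mice. Values are given as CPM, read counts brought to a common library size by TMM, with factors of 1.01 to 1.77 for control and 0.507 to 1.10 for stress libraries. The scale matters here: over all tested genes the median log2 fold change came to -0.03 under TMM and to -0.82 under scaling by total counts. With TMM 1223 genes were higher and 432 lower by edgeR at an adjusted p under 0.05, and with total counts 52 and 5811. Stress replicate 3 was the shallowest library in TMM terms and held 1538 counts over the members other than Cd300e, against 5954 in stress replicate 4.

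In the stress group, 5 of the 7 members rose and 1 fell at an adjusted p under 0.05 (quasi-likelihood test of edgeR, adjusted over all tested genes). Cd300a, Cd300lf, Pirb, Sirpa and Cd300lb rose by log2 fold changes between 0.72 and 1.25, and Cd300e fell by 1.49 on the log2 scale. Cd300ld was higher by 0.74 and did not pass. Of all tested genes, 10.4% were higher and 3.69% lower by this rule. At the stricter thresholds of the study (a log2 change beyond 1 in size with an adjusted p under 0.01), edgeR called Cd300lf higher and no member lower, where 1.69% of all tested genes were higher and 0.0171% lower. DESeq2 with default settings called Cd300lf higher (1.24, adjusted p = 8.63e-05) and Cd300e lower (-1.49, adjusted p = 0.00974) at these thresholds, where 1.93% of the genes it tested were higher and 0.0753% lower. In the plot of CPM by sample, Cd300e is the one receptor whose stress samples lie below the controls.

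**Figure D1:**
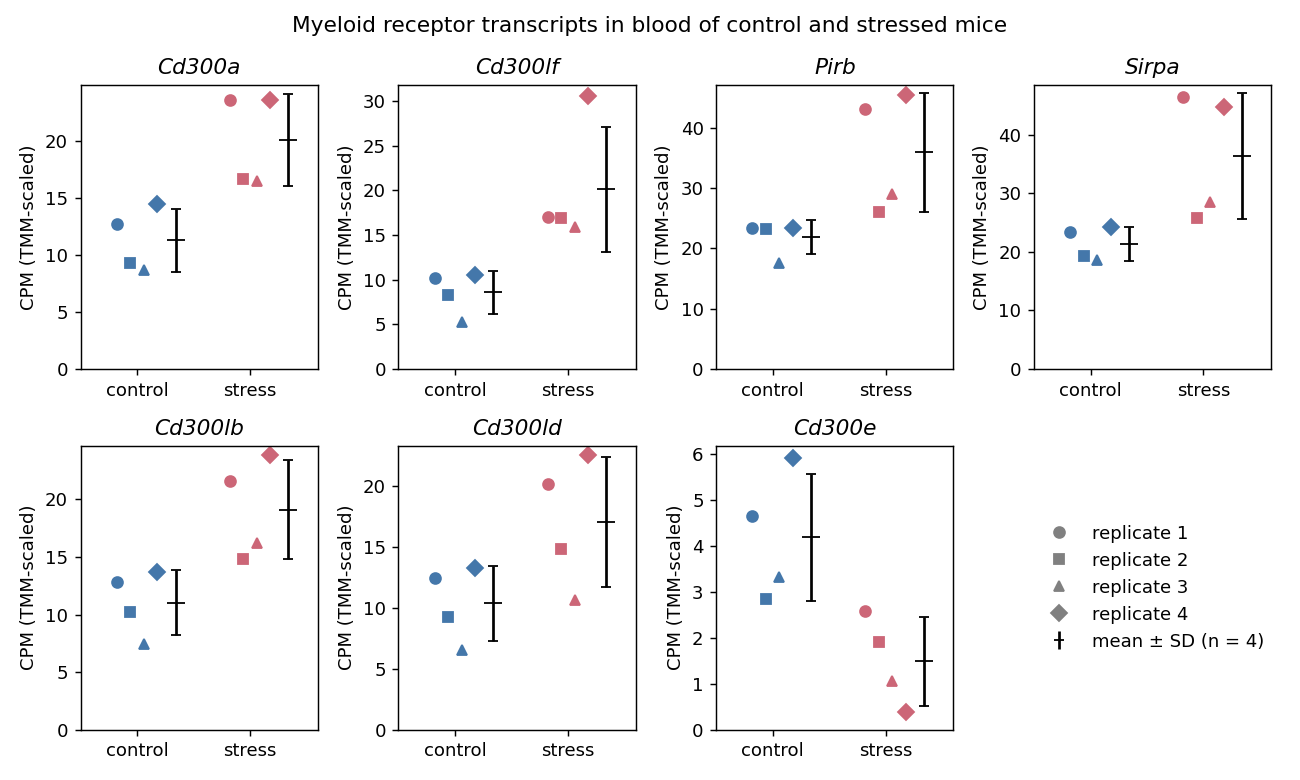
CPM after TMM scaling (vertical axis, starting at 0) of each receptor in the 4 control (blue) and 4 stress (red) samples, with marker shapes for replicates and bars for the mean ± SD. On this scale every stress sample lies above every control sample for Cd300a, Cd300lf, Pirb, Sirpa and Cd300lb. Of all tested genes, 11.1% had this order. The groups overlap for Cd300ld, and every stress sample lies below every control sample for Cd300e (9.87% of all tested genes).

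Among the inhibitory receptors, Cd300lf had the largest increase. This receptor, also named CLM-1, restrains the activation of myeloid cells and takes part in the uptake of apoptotic cells. It measured 10.2, 8.32, 5.23 and 10.5 CPM in control replicates 1 to 4 and 17.1, 16.9, 15.9 and 30.6 CPM in stress replicates 1 to 4. The stress samples lay close together except replicate 4, and on the TMM scale no stress sample came down to the control range. Such an order, with all stress above all control samples, was seen in 11.1% of all tested genes. The mean went from 8.57 ± 2.43 to 20.1 ± 6.98 CPM (mean ± SD of 4 samples each), which is a log2 fold change of 1.25 with a standard error of 0.25 (adjusted p = 0.00725). Without stress replicate 4 the log2 fold change was 0.97 and the adjusted p 0.0106.

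Cd300a, which recognises phosphatidylserine and phosphatidylethanolamine on dying cells and inhibits myeloid cells and mast cells, measured 12.7, 9.27, 8.67 and 14.4 CPM in the control replicates and 23.6, 16.6, 16.5 and 23.5 CPM in the stress replicates. Stress replicates 1 and 4 stood above replicates 2 and 3, and the lowest of them was above the highest control. The log2 fold change was 0.85 (standard error 0.18, adjusted p = 0.0097), short of the fold threshold of the study. Cd300a passed an adjusted p of 0.05 in all 8 fits that left out a sample, as did Cd300lf.

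Pirb measured 23.4, 23.2, 17.6 and 23.4 CPM in the control replicates and 43.1, 26.0, 29.0 and 45.4 CPM in the stress replicates. Control replicate 3 was below the other 3 controls, which lay between 23.2 and 23.4 CPM, and the coefficient of variation was 13.1% in the control and 27.3% in the stress group. The groups did not overlap on the TMM scale. The log2 fold change was 0.72 (standard error 0.18, adjusted p = 0.0187).

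Sirpa measured 23.5, 19.2, 18.6 and 24.2 CPM in the control replicates and 46.5, 25.8, 28.5 and 44.7 CPM in the stress replicates. Its pattern was close to that of Pirb, with stress replicates 1 and 4 high and 2 and 3 nearer to the controls. The log2 fold change was 0.77 (standard error 0.19, adjusted p = 0.0184). Without control replicate 3 the adjusted p was 0.0545 for Sirpa and 0.0565 for Pirb, and without control replicate 2 it was 0.0566 for Sirpa.

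Among the receptors that signal through adapters, Cd300lb, which couples to DAP12, measured 12.8, 10.2, 7.43 and 13.7 CPM in the control replicates and 21.6, 14.8, 16.2 and 23.8 CPM in the stress replicates. The lowest stress sample was above the highest control sample by about 1 CPM. The log2 fold change was 0.81 (standard error 0.20, adjusted p = 0.0213), and without control replicate 2 the adjusted p was 0.0586.

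Cd300ld measured 12.4, 9.27, 6.53 and 13.2 CPM in the control replicates and 20.1, 14.8, 10.6 and 22.5 CPM in the stress replicates. Stress replicate 3 fell within the control range, so that the groups overlapped. The log2 fold change of 0.74 (standard error 0.25) did not pass (adjusted p = 0.0663). Without control replicate 4 it did, at a log2 fold change of 0.90 and an adjusted p of 0.0355.

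Cd300e, an activating receptor carried mainly by monocytes, had the fewest reads of the 7. It measured 4.64, 2.84, 3.32 and 5.90 CPM in the control replicates, from 147 to 230 counts, and 2.59, 1.90, 1.06 and 0.384 CPM in the stress replicates, from 12 to 58 counts. All stress samples were below all controls, an order seen in 9.87% of all tested genes, and they differed among themselves more than those of any other member, with a coefficient of variation of 64.8%. The mean went from 4.18 ± 1.38 to 1.48 ± 0.962 CPM (SD, n = 4 per group). Cd300e fell by 1.49 on the log2 scale (standard error 0.43, adjusted p = 0.041). The call also held with DESeq2 (-1.49, adjusted p = 0.00974) and limma-voom (-1.78, adjusted p = 0.0289). It held in 3 of the 8 edgeR fits that left out a sample, and was lost without control replicate 1 (adjusted p = 0.0728), control replicate 3 (0.059), control replicate 4 (0.0829), stress replicate 2 (0.0834) or stress replicate 3 (0.155).

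The sign of the 7 log2 fold changes was the same under every library scaling tried, but the size of the increase was not. Scaled by total counts alone, the log2 fold changes of the members other than Cd300e lay between 0.02 (Pirb) and 0.62 (Cd300lf). Their standard errors were 0.338 to 0.345, and none of them passed (lowest adjusted p 0.105), while Cd300e was lower by -2.27 (adjusted p = 3.11e-05). Relative to the median of all tested genes, Cd300a was higher by 0.87 with TMM and by 0.98 with total counts, Cd300lf by 1.28 and 1.44, Pirb by 0.74 and 0.84, and Cd300e stood at -1.47 and -1.45. The increases are therefore statements relative to the typical gene, and the plot of both scalings shows the shift of that reference.

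**Figure D2:**
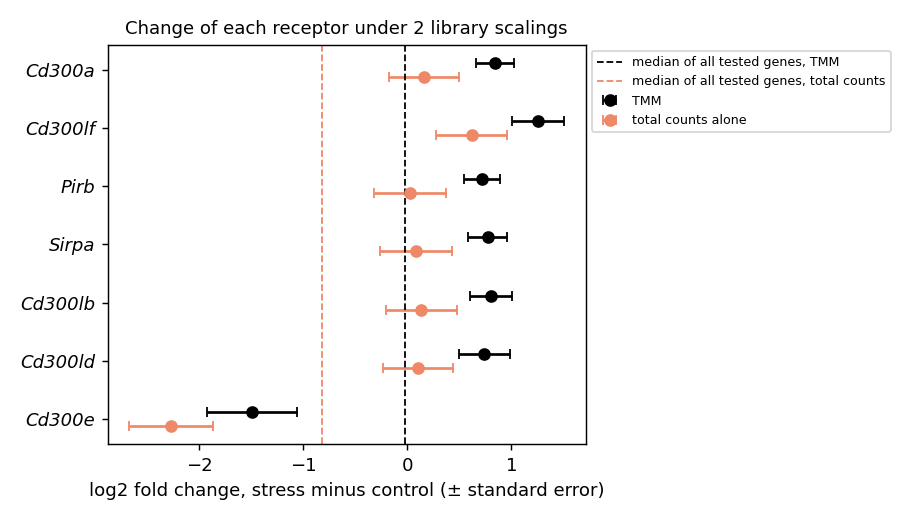
Log2 fold change (stress minus control, horizontal axis) of the 7 receptors with its standard error, from edgeR with TMM (black) and with total counts alone (orange). Dashed lines mark the median of all tested genes, -0.03 and -0.82; Cd300e lies left of both medians and the other receptors right of both.

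A ratio of the counts of 2 members within a sample does not depend on the scaling. In each control sample the counts of Cd300a were 2.45 to 3.26 times those of Cd300e, and in the stress samples 9.12, 8.73, 15.5 and 61.2 times. Pirb had 3.97 to 8.15 times the counts of Cd300e in control and 13.7 to 118.0 times in stress samples. The log2 ratios were taken from log2 CPM with a prior count of 2, which is scaled to each library, so they depend on the scaling through it. Prior counts of 0.5 and 5 left the number of member pairs with groups apart at 6. In all 6 pairs that contain Cd300e the groups did not overlap, with a shift of 2.37 to 2.91 on the log2 scale. Of all pairs of tested genes, 19.3% had groups apart. Each of these pairs reached the smallest p that 4 samples against 4 allow (two-sided exact permutation test, p = 0.0286), which became 0.1 after Benjamini-Hochberg adjustment over the 21 pairs and did not pass 0.05.

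In the 15 pairs without Cd300e the groups overlapped in every pair, with shifts of 0.02 to 0.54 on the log2 scale. The smallest p among them was that of Cd300ld against Cd300lf (two-sided exact permutation test, p = 0.0571, adjusted 0.171). Their log2 ratio was 0.27 ± 0.08 in control and -0.24 ± 0.36 in stress samples (SD, n = 4 each). The ratio of Pirb to Sirpa was nearly constant over the 8 samples, at a log2 ratio of 0.03 ± 0.16 in control and -0.01 ± 0.07 in stress samples (SD, n = 4 each). With all 8 samples a difference in response between these 6 receptors was thus not detected. The adjusted test could hardly show one, since even pairs at the smallest possible p (exact permutation test, 0.0286) came to 0.1. Without stress replicate 1 the groups were apart in 5 more pairs, those of Cd300lf with Cd300a, Cd300lb, Cd300ld, Pirb and Sirpa, each with a larger increase of Cd300lf. Of all pairs of tested genes, 24.0% then had groups apart.

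**Figure D3:**
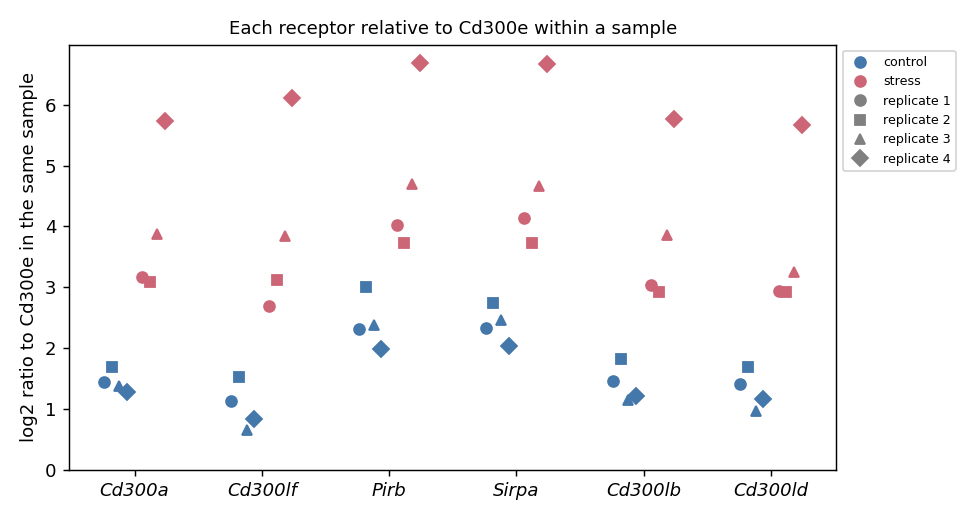
Log2 ratio of each of the other 6 receptors to Cd300e within the same sample (vertical axis, prior count 2), in control (blue) and stress (red) samples. For all 6 receptors the stress samples lie above the controls, and stress replicate 4 lies highest, at 5.67 to 6.69.

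Counted together, the 7 members had 4.66%, 3.45%, 4.93% and 5.60% of their counts from Cd300e in control replicates 1 to 4 and 1.48%, 1.63%, 0.902% and 0.201% in the stress replicates. The groups did not overlap in this share.

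Levels per length, as CPM per kb of merged exons, ranked the genes in the control group as Pirb (4.90 ± 0.642, SD, n = 4), Sirpa (4.35 ± 0.582), Cd300ld (3.92 ± 1.16), Cd300lb (3.78 ± 0.972), Cd300a (2.38 ± 0.582), Cd300e (2.0 ± 0.659) and Cd300lf (1.66 ± 0.472). The ranges of all neighbours in this order overlapped. Pirb was above Sirpa in 4 of 4 control samples, and Cd300e above Cd300lf in 3 of 4.

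In the stress group the level of Pirb per length was 8.02 ± 2.19 and that of Sirpa 7.40 ± 2.19 CPM per kb (SD, n = 4 each), again the highest. Cd300lf reached 3.91 ± 1.35 CPM per kb and Cd300e was last with 0.711 ± 0.461. These 2 neighbours were the only ones in the stress order whose ranges did not overlap.

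Within the groups, the members other than Cd300e varied together over the 8 samples. After subtraction of the group means, Pearson's r of log2 CPM lay between 0.611 (Cd300lf with Sirpa) and 0.942 (Cd300a with Cd300lb) in the 15 pairs without Cd300e. In the 6 pairs with Cd300e it lay between -0.357 and 0.146. These values are a description, since all genes of a sample share its library and its scaling.

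Of the 10309 tested genes with a mean of at least 1 CPM, those whose log2 CPM followed each member most closely over the 8 samples were taken by Pearson's r, without a test. Zeb2 was the most like Cd300a (r = 0.99 over all samples, 0.967 after subtraction of the group means), Cdc42bpa the most like Cd300lb (0.996 and 0.995), and Tmem151b the most like Cd300ld (0.995 and 0.996). For Cd300lf it was Il1rn (0.989 and 0.969), the antagonist of the interleukin-1 receptor. Slc2a6 was the closest to Pirb (0.98 and 0.959) and Mpeg1, which encodes the pore-forming protein perforin-2, to Sirpa (0.988 and 0.977). Pirb was itself the third closest to Sirpa (0.974 and 0.933). Cd300e was followed most closely by Lclat1 (0.948 and 0.896) and Cd160 (0.936 and 0.948). Over all samples these values were lower than those of the other members, but after subtraction of the group means not all of them were.

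The remaining Cd300 genes were scarce in blood. Of 6 in the matrix, Cd300c2 and Cd300lg were tested, and neither passed: Cd300c2 changed by 0.42 on the log2 scale (standard error 0.22, adjusted p = 0.206) and Cd300lg by 0.62 (standard error 0.53, adjusted p = 0.451). Cd300c had 5 to 15 counts in the control samples and 0 to 4 in the stress samples, and Cd300ld3, Cd300ld4 and Cd300ld5 had at most 4 counts in any sample. A change was not detectable for them at this depth.

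Of 8 tested relatives of Pirb and Sirpa, 4 rose and 0 fell. Over all tested genes 10.4% rose and 3.69% fell with TMM, the shares to set beside each list below. Of the 6 Pira and Lilr genes among them, 2 rose. Lilrb4a, an inhibitory receptor, rose from 13.4 ± 2.38 to 30.5 ± 9.57 CPM (mean ± SD of 4 samples each; log2 fold change 1.19, standard error 0.20, adjusted p = 0.00344), and Lilra6 by a log2 fold change of 0.78 (adjusted p = 0.00725). Pira2 (log2 fold change 0.56, adjusted p = 0.265) did not pass. Both tested Sirpb1 genes, which encode activating relatives of Sirpa, rose: Sirpb1b from 3.22 ± 0.643 to 9.33 ± 1.79 CPM (log2 fold change 1.54, standard error 0.19, adjusted p = 0.000894) and Sirpb1a by a log2 fold change of 0.95 (adjusted p = 0.0432). Near-identical copies leave the split of counts among these genes uncertain.

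Of the 3 adapter genes, 2 rose and 0 fell. Tyrobp, which encodes DAP12, went from 20.5 ± 4.53 to 38.9 ± 4.22 CPM (mean ± SD of 4 samples each; log2 fold change 0.93, standard error 0.15, adjusted p = 0.00199). Fcer1g went from 26.6 ± 5.09 to 47.3 ± 7.25 CPM (log2 fold change 0.83, standard error 0.15, adjusted p = 0.00298). Hcst, the gene of DAP10, had a log2 fold change of 0.43 and did not pass (adjusted p = 0.108). The adapter list moved by a median log2 fold change of 0.83 (0.04 with total counts alone).

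Of the 7 listed ligand genes 4 were tested, and 0 passed in either direction (edgeR's quasi-likelihood test; 2 of them, Cd47 and B2m, at an unadjusted p under 0.05). Cd47, the ligand of Sirpa, measured 67.3 ± 2.61 and 80.7 ± 3.96 CPM in the control and the stress group (SD, n = 4 each; log2 fold change 0.26, adjusted p = 0.0933). B2m, the light chain of the MHC class I molecules that Pirb binds, had a log2 fold change of 0.58 (adjusted p = 0.0653), and the heavy chain genes H2-D1 and H2-K1 of 0.28 and 0.02 (adjusted p = 0.258 and 0.937). For Cd47, B2m and H2-D1 every stress sample was above every control, as in 11.1% of all tested genes, and for H2-K1 the groups overlapped. Timd4 had at most 2 counts in a sample, and the surfactant protein genes Sftpd and Sftpa1 had 0.

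Among 11 genes of proximal signalling, 3 rose and 0 fell: Skap2, an adapter that binds the tail of Sirpa (log2 fold change 0.89, standard error 0.13, adjusted p = 0.00124), Ptpn11, which encodes SHP-2 (0.64, standard error 0.14, adjusted p = 0.00843), and Lyn, a kinase that phosphorylates ITIMs (0.49, standard error 0.11, adjusted p = 0.0124). Ptpn6, which encodes SHP-1, and Inpp5d, which encodes the lipid phosphatase SHIP-1, were picked after their values were seen. Ptpn6 measured 124.0 ± 5.92 and 121.0 ± 19.3 CPM in the control and the stress group, a log2 fold change of -0.04 (adjusted p = 0.864). Inpp5d had a log2 fold change of 0.13 (adjusted p = 0.424).

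Other inhibitory receptors of myeloid cells rose in 3 of 13 and fell in 0, with a median log2 fold change of 0.38. The 3 were Clec4a2, a lectin with an ITIM (2.04, adjusted p = 0.00205), Siglece, a sialic acid receptor (1.07, adjusted p = 0.00398), and Cd33 (1.14, adjusted p = 0.042). Of 12 tested activating receptors 6 rose and 0 fell, with a median of 0.74. Those with the smallest p-values were Clec4d (1.58, adjusted p = 0.000768), Clec4e (1.28, adjusted p = 0.00207) and Clec7a (1.22, adjusted p = 0.0031), lectins that recognise microbes. With total counts alone the medians were -0.42 and 0.02, against -0.82 for all tested genes.

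**Figure D4:**
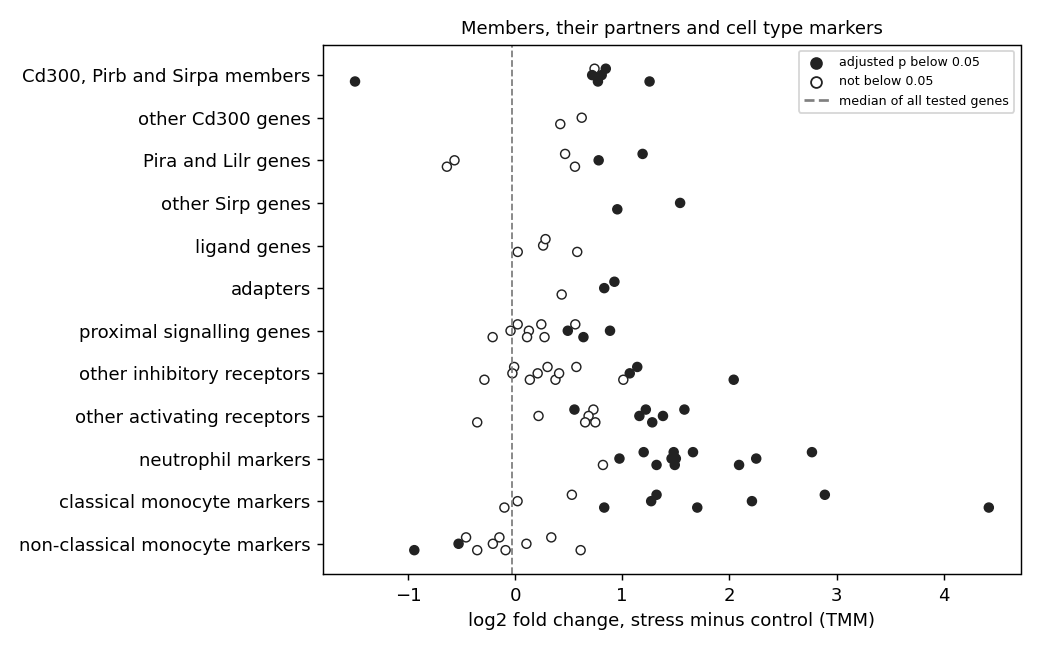
Log2 fold change (stress minus control, TMM, horizontal axis) of each tested gene of the 7 members, their relatives, ligands, adapters and signalling genes, other myeloid receptors and 3 marker lists; filled points passed an adjusted p of 0.05 and the dashed line is the median of all tested genes. Of the adapters Tyrobp and Fcer1g passed and Hcst did not, both Sirpb1 genes passed, and Cd300e lies left of every other point shown.

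Markers of several blood cell types moved in the same comparison, where 10.4% of all tested genes rose and 3.69% fell with TMM. Of 12 neutrophil markers 11 rose, with a summed level of 203.0 to 401.0 CPM in the control samples and 634.0 to 935.0 CPM in the stress samples. Of 10 classical monocyte markers 7 rose (388.0 to 511.0 and 742.0 to 1290.0 CPM), and of 10 non-classical monocyte markers 0 rose and 2, Ace and Eno3, fell (294.0 to 378.0 and 260.0 to 348.0 CPM). Most of the non-classical monocyte sum came from Itgal (means of 158 and 170 CPM in control and stress samples) and Spn (82.5 and 71.5 CPM). That sum therefore says little about the other markers of the list. Among those, Ace went from a mean of 33.9 to 17.6 CPM, Eno3 from 9.8 to 6.73 and Adgre4 from 9.13 to 6.58. By sign, the TMM changes of the 10 markers were negative for 7 and positive for 3, which were Itgal, Cx3cr1 and Fabp4. Lyz2 (273 and 679 CPM) gave most of the classical monocyte sum. No marker of these 3 lists was at 0. With total counts alone the median log2 fold changes were 0.75 (neutrophil), 0.54 (classical monocyte) and -0.975 (non-classical monocyte), against -0.82 for all tested genes. Of 8 dendritic cell markers 3 rose and 0 fell, though their summed level was lower in the stress samples (67.9 to 75.6 and 55.1 to 66.8 CPM). Irf8 was the largest part of that sum (means of 54.6 and 44.2 CPM). Of 8 B cell markers 4 fell, of 9 T cell markers 0 passed, of 8 NK cell markers 1 fell, of 8 platelet markers 8 rose and of 5 erythroid markers 0 passed. Among 5 tested markers of eosinophils and basophils 2 rose and 1 fell, while Epx and Prg2 had at most 7 counts. By flow cytometry of peripheral blood in the same stress model, the study reported more neutrophils and fewer monocytes, NK cells, B cells and T cells. Those are cell numbers, while the values here are transcripts. How far each marker is particular to its cell type in unsorted blood was not tested. The part of these cells in the values of the 7 receptors was not tested either.

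Each member was set against the mean log2 CPM of the markers in the same sample, which depends on the scaling only through the prior count. Relative to the neutrophil markers, 6 of the 7 members (Cd300lf being the exception) were lower without overlap of the groups. That order held for 85.4% of all tested genes. Relative to the classical monocyte markers Cd300e alone had groups apart, being lower, where 73.4% of all tested genes were.

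Relative to the 10 non-classical monocyte markers, 6 members were higher in every stress sample than in every control sample (14.5% of all tested genes), and Cd300e was lower (0.247% of all tested genes). Cd300e stood at -1.49 ± 0.19 in control and -2.97 ± 1.01 in stress samples on this log2 scale (SD, n = 4 each; two-sided exact permutation test, p = 0.0286, or 0.0429 after adjustment over 21 combinations). This is the smallest p that 4 samples against 4 allow. Its adjusted value was set by the 14 combinations that reached it, those with the neutrophil markers among them, and is no measure for a single member. Cd300lf went from -0.46 ± 0.31 to 0.97 ± 0.57 and Cd300a from -0.05 ± 0.10 to 0.99 ± 0.27, at the same p-values (exact permutation test). For Cd300lf the difference relative to the neutrophil markers was -0.31 (two-sided exact permutation test, p = 0.143, adjusted 0.15), and relative to the classical monocyte markers -0.19 (p = 0.657 by the same exact test).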

How the data were processed

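RNA of whole peripheral blood from 4 control and 4 stressed mice was sequenced after an unstranded TruSeq preparation. For every sample the authors deposited whole-number read counts by gene symbol that had not been normalized. The submitters' processing notes name HISAT2, featureCounts and the build mm10; versions, the annotation, the strand setting and filters are not given in the sources used here. The test used genes reaching 10 counts in 4 or more samples, in edgeR 4.0.16 in R 4.3.3 (TMM, robust quasi-likelihood test, Benjamini-Hochberg adjustment), and the fit was tested on simulated data. A gene was said to rise or fall at an adjusted p below 0.05. Exact permutation tests ran over 70 assignments of the 8 samples in SciPy 1.17.1. Coordinates and merged exon lengths came from GENCODE M21 and upstream sequences from RefSeq.

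The 7 members and all gene lists were chosen with earlier results of these data known. All members were named, with the 3 genes of smallest p of each list of relatives and partners, all adapters and tested ligands, and the 3 genes most like each member by Pearson's r, of which the closest are given. Listed symbols were matched directly or through RefSeq synonyms. The alternatives were DESeq2 1.42.0, limma-voom (limma 3.58.1), other normalizations and filters, a replicate block, a fit without the haemoglobin genes, other prior counts (0.5 and 5) and leaving out each sample. The authors' own fold changes were not used. The p-values measure the spread between 4 mice a group.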

Additional observations from a re-analysis of the deposited data

Results flagged for a closer look

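In 56 groups of 4 values, 5 held a sample whose gap to its nearest neighbour was beyond Dixon's critical value for that number of samples, where chance gives about 1 in 20. Stress replicate 4 stood above the other stress samples in the CPM of Cd300lf, with a gap of 0.922 of the range. Control replicate 3 stood below the other controls in the CPM of Pirb, at 0.957. In the log2 ratio of Cd300e to Cd300ld stress replicate 4 was apart at 0.881, in that of Cd300lf to Sirpa control replicate 3 was apart at 0.98, and in that of Pirb to Sirpa stress replicate 1 was apart at 0.899.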

How the results depend on the processing

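The log2 fold change of every member kept its sign in all 17 other fits. With total counts alone those of Cd300a, Cd300lb, Cd300ld, Pirb and Sirpa were smaller than their standard errors (0.338 to 0.345), which leaves their direction unsettled. With total counts alone, the log2 fold changes of Cd300a (0.16), Cd300lb (0.13), Cd300lf (0.62), Pirb (0.0238) and Sirpa (0.0806) no longer passed an adjusted p of 0.05, so that 0 of the 5 increases remained. Cd300e did not pass without a filter on low counts (-1.49, adjusted p = 0.0962), which left 0 members lower. Cd300ld passed with DESeq2 (0.73, adjusted p = 0.0424) and limma-voom (0.81, adjusted p = 0.0415). At the thresholds of the study 1 member was higher and 0 lower with edgeR, and 1 higher and 1 lower with DESeq2, a combination added after the data were seen. Apart from total counts alone and the filter, the causes of these changes were not tested.

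Over all tested genes, same-numbered samples did not deviate together (correlations of 0.0621, 0.000441, -0.0445 and -0.16 for numbers 1 to 4, and not every sample correlated best with its own number), so the numbers were not taken to pair the mice. With the replicate number as a block, Cd300ld passed (0.71, standard error 0.11 in place of 0.25, adjusted p = 0.0032), its differences between same-numbered samples lying between 0.68 and 0.76 on the log2 scale. Cd300e did not pass (-1.59, adjusted p = 0.113), which left 0 lower and 6 higher, and no other member changed its call. Over all tested genes the block gave 920 higher and 240 lower.

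With each sample left out in turn, the log2 fold change ranged from 0.74 to 1.01 for Cd300a, -1.92 to -1.11 for Cd300e, 0.65 to 0.95 for Cd300lb, 0.57 to 0.92 for Cd300ld, 0.97 to 1.39 for Cd300lf, 0.58 to 0.87 for Pirb and 0.66 to 0.93 for Sirpa. Between 3 and 6 members were then higher at an adjusted p below 0.05 (3 without control replicate 2 or 3) and 0 to 1 lower. The share of all tested genes called higher was 5.35% without control replicate 2 and 6.01% without control replicate 3, against 10.4% with all samples. The pairs with groups apart numbered 6 to 11 (11 without stress replicate 1, where the 5 more pairs all held Cd300lf), and the combinations of a member and a marker list 14 to 19. With 4 samples against 3 the exact permutation test cannot go below 0.0571. Prior counts of 0.5 and 5 left both numbers within 1.5 times. Cd300e rested on 12 to 58 counts per stress sample, the lowest depth among the members.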
